A study of Mus musculus with 16 samples.

Results

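Livers of mice that lack Lcn2 were set against wild type (WT) livers in the absence of toxic injury, to ask which genes already differ between the genotypes at baseline. The comparison takes 7 of the 16 arrays of the series, the 3 from Lcn2-/- control mice and the 4 from WT control mice, 1 array per animal, chosen by the genotype and treatment in their titles. All animals were male BALB/c mice, aged 6 to 8 weeks at the start and kept on regular chow. Control mice received corn oil, the carrier of the hepatotoxin CCl4, for 4 weeks. The Lcn2-/- line lacks the gene in every cell. It was made on a mixed 129/Ola and C57BL/6 background and then crossed back to BALB/c over 9 or more generations. The other 9 arrays, 5 WT CCl4 and 4 Lcn2-/- CCl4, came from mice injected with CCl4 at 0.5 ml/kg 2 times per week for 4 weeks and killed 48 h after the last dose. They entered the same limma model, and their genotype difference is given beside that of the controls, with which it shares no array.

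Lipocalin 2 is a small secreted protein that binds iron-loaded siderophores, the iron carriers of bacteria, and so withholds iron from them. It is stored in neutrophil granules and is released by hepatocytes as an acute phase protein, so its level in liver follows inflammation. When a knockout is crossed back to another strain, selection for the deleted gene keeps donor DNA around it, and other donor segments may stay elsewhere. Strain differences in expression can thus travel with a knockout.

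Signals are given on a log2 scale after quantile normalization, where a difference of 1 is a 2-fold change, and a level says nothing of one probe against another. A gene was called when its limma p, adjusted by Benjamini-Hochberg over 24357 gene names with 1 probe each, was under 0.05. Names of the array design can repeat a gene, as LOC100048875 and LOC100048871, both called, have probes that overlap those of Cx3cr1 and Mas1, respectively. The p values measure the spread between these animals. Between 51.6% and 56.6% of the spots on a control array stood well above background, and no gene spot was saturated. The hepatocyte markers Alb, Ttr, Apoa1, Hnf4a and Serpina1a lay between 17.40 and 19.09 on all 7 arrays, and the pancreatic markers Prss2, Cpa1 and Pnlip were not well above background on any.

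Some arrays and positions stood apart. In the principal component analysis of the 7 arrays, component 1 (39.4% of the variance) was led by WT control 3 at 82.4 and Lcn2-/- control 3 at 35.7, with the others between -59.5 and 24.3. Component 2 (22.3%) separated the genotypes, from 6.19 to 38.4 in WT and from -62.4 to -14.3 in Lcn2-/-. The summed signal of 5 neutrophil markers was 12.96, 13.16, 15.30 and 13.50 on WT control 1 to 4 and 12.68, 12.95 and 15.63 on Lcn2-/- control 1 to 3. That of 5 Kupffer cell markers was 16.01, 16.62, 17.46 and 16.39 against 16.32, 16.26 and 17.70. Replicate 3 was thus the highest of each genotype on both. All WT control arrays lay in the first tier of the slide and all Lcn2-/- control arrays in the second, so genotype and tier cannot be told apart within the controls. WT CCl4 1, in the second tier of the same slide, is the only array that separates them.

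The deleted gene was examined first. Lcn2 (chromosome 2, 32240199 to 32240258, mm9) was detected by the probe whose first 30 bases are given here because it is the gene that the line was made to lack. Whether the probe lies in the deleted part was not analysed here.
Lcn2: aaggagcatctggagcctcttcttatttgg
Its signal was 13.79, 14.58, 17.57 and 14.69 on WT control 1 to 4. It was 10.47, 11.05 and 11.53 on Lcn2-/- control 1 to 3. The groups did not overlap, WT control 3 was the highest, and all 3 Lcn2-/- arrays were still well above background. Lcn2 was lower by -4.14 (SE 0.76, limma adjusted p 0.0213, 17.7-fold), with an exact two-sided permutation p of 0.0286, the smallest that the 35 splits allow. Without WT control 3 the difference was -3.34 (limma adjusted p 0.0144). With replicate number as a block it was -4.26 (limma adjusted p 0.0643), and it no longer passed without Lcn2-/- control 1 (0.118) or Lcn2-/- control 2 (0.0756).

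With Lcn2 included, 129 genes (0.53%) were called. The count depended on the model, with 1270 under array weights, 216 with no filter on dim probes and 40 with slide tier as a term. The Lcn2-/- level was the higher one for 58 (0.238%) and the lower one for 71 (0.291%), and 109 genes differed at least 2-fold. The 7 values of all 129 called genes did not overlap between genotypes, as was the case for 9.64% of all genes tested. At an unadjusted p under 0.05 there were 2021 genes. Leaving out WT control 3 gave 123 genes, of which 99 were among the 129. Leaving out probes in array rows 1 to 20 gave 117, of which 115 were among the 129, and leaving out both gave 114.

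The called genes fell into 3 sets by position. The first is 14 genes whose probes lie in rows 3 to 8 of the 384 rows of the array, and they are described last. Below the top 20 rows were 115 called genes, 45 higher and 70 lower (0.502% of 22921). Of these, 47 lay on chromosome 2 or 5 (1.49% of 3148 genes there), 25 higher and 22 lower. The other 68 (0.344% of 19773) comprised 20 higher and 48 lower. Counting all rows, chromosome 5 had 25 called genes of 1485 (1.68%) and chromosome 2 had 25 of 1838 (1.36%), while the other chromosomes ranged from 0% to 0.635%.

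**Figure D1:**
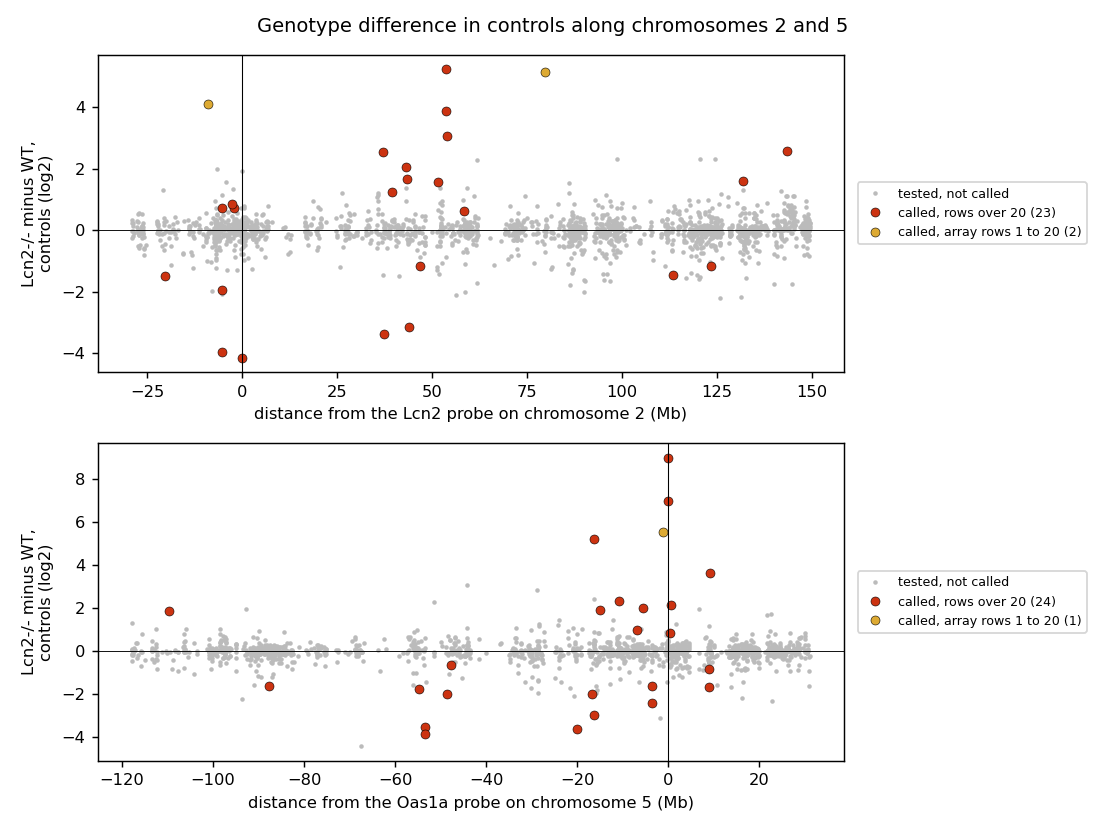
Difference between Lcn2-/- and WT controls (log2, vertical axis) for every gene tested on chromosome 2, by distance in Mb from the Lcn2 probe, and on chromosome 5, by distance from the Oas1a probe; grey points were not called, red points were called, and gold points are called genes with probes in array rows 1 to 20. On chromosome 2 called genes reach from 20.4 Mb before Lcn2 to 143.4 Mb after it, and on chromosome 5 the largest rises, Oas1a and Oas1f, lie at 0.

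The largest rises were in Oas1a and Oas1f on chromosome 5. They encode oligoadenylate synthetases, enzymes that interferon induces and that sense double-stranded RNA and thereby activate RNA decay. The first 30 bases of their probes are shown because the tested probes of both genes are similar in sequence, whereas the other Oas1a probe lies in a different stretch. Cross-hybridisation between the similar probes was not tested.
Oas1a tested probe: tgtccacctgttggaaggttctgtctgaca
Oas1f tested probe: cctgtccacctgttgggaggttctgtccaa
Oas1a other probe: tgatgtgtgggtatggtacccatgttttat
Oas1a (chromosome 5, 121346735 to 121346794, mm9) measured 5.13, 3.57, 5.69 and 4.28 in WT controls against 13.23, 12.75 and 14.95 in Lcn2-/- controls. Oas1f (121307929 to 121307988) measured 5.84, 5.29, 4.69 and 5.98 against 11.96, 11.57 and 13.75. Both were far apart between genotypes, with Lcn2-/- control 3 the highest array. The Oas1a difference was 8.98 (SE 0.551, limma adjusted p 4.31e-07) and that of Oas1f 6.97 (SE 0.474, limma adjusted p 1.51e-06). In WT, Oas1a was detected above background on 1 array and Oas1f on 2 of the 4. The other Oas1a probe (121348338 to 121348397) was at background in WT and 10.78 ± 1.13 (SD, n = 3) in Lcn2-/-, at least 59.0-fold higher. Without WT control 3 the rises were 9.32 and 6.72. Under CCl4, where no WT array was well above background for Oas1a, it was at least 767-fold higher, and Oas1f was higher by 7.39.

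Differences in the rest of the family were smaller. Of the 10 oligoadenylate synthetase genes tested, only Oas1a and Oas1f were called with all arrays, against 0.238% of all genes called higher. At an unadjusted p under 0.05, 5 were higher and 0 lower, against 790 higher and 1231 lower of all 24357 genes. In this list 1 had a difference below 0, against 12660 of all genes. The median difference was 0.63 against -0.0103 over all genes tested. Oas1c was 8.15, 7.69, 8.18 and 8.05 in WT and 8.87, 8.89 and 8.87 in Lcn2-/-, a difference of 0.86 that missed the threshold (limma adjusted p 0.074). Oasl1 had a difference of 1.00 (limma adjusted p 0.253), which became 1.31 and was called without WT control 3 (limma adjusted p 0.0244). Oas2, Oas3 and Oasl2 had differences of 0.24, 0.08 and -0.05, with overlapping groups. Of the 45 other interferon-stimulated genes tested none was called, 1 (Rsad2) had an unadjusted p under 0.05, and their median was -0.0806. Rsad2, an antiviral enzyme, had a difference of -1.12 (limma adjusted p 0.535), and Ifit1 and Mx1 had differences of -0.53 and -0.68. The median of these genes was 0.152 without WT control 3 and -0.592 without Lcn2-/- control 3, so its sign depended on which of them was left out. Without both arrays it was -0.265, and with the replicate block -0.129.

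The 100 bases before the RefSeq start of 3 neighbouring genes of this family are shown (GRCm38.p6, the C57BL/6J reference, on the strand of each gene, Oas1a and Oas1g on the minus strand and Oas1f on the plus strand) because interferon acts on this family through a promoter element. Capitals mark matches to a motif of 2 copies of GAAA separated by any 2 bases, searched on both strands, where 2 matches overlap.
Oas1a (chr5:120907526-120907625): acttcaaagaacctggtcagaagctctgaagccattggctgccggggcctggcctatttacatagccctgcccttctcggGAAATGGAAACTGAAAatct
Oas1f (chr5:120847267-120847366): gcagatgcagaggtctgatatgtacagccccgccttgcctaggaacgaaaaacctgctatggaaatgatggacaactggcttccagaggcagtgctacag
Oas1g (chr5:120887614-120887713): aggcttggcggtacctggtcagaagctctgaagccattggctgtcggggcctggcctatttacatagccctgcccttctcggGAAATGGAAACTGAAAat
The motif was in 0.983% of 32851 RefSeq promoters over 100 bases and in 2.98% over 250 bases. Oas1a and Oas1g held 2 matches each, while no match was found in the 250 bases before Oas1f. Neither of the Oas1g probes was well above background on any control array. The sequence of BALB/c or of the Lcn2-/- line was not analysed here.

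**Figure D2:**
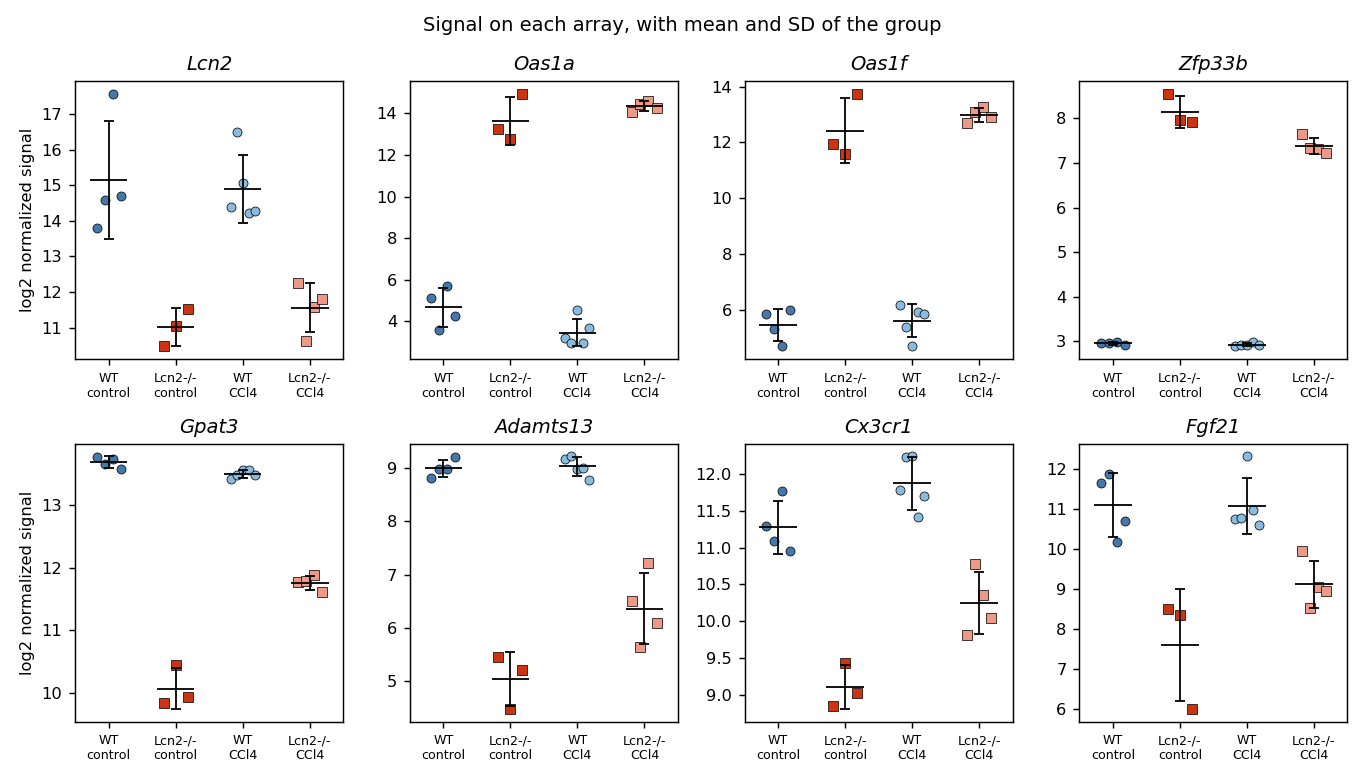
Signal of 8 genes on each array (log2 normalized signal, vertical axis) in the 4 groups; points are arrays, long bars are group means and error bars are SD (n = 4, 3, 5 and 4 from left to right). In each panel the control arrays of the genotypes do not overlap, and the CCl4 group means differ in the same direction.

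Other genes of chromosome 5 differed in either direction, by less than Oas1a and Oas1f. Zfp33b, a zinc finger gene, measured 2.96, 2.96, 2.99 and 2.92 in WT controls and 8.55, 7.97 and 7.91 in Lcn2-/- controls. With WT at background, the Lcn2-/- level was higher by at least 9.50-fold (limma adjusted p 2.41e-11). Gpat3, which encodes an acyltransferase of the first step of triglyceride synthesis, measured 13.78, 13.67, 13.75 and 13.58 against 9.83, 10.44 and 9.93. The WT arrays were tightly grouped and all Lcn2-/- arrays lay far below them. Gpat3 was lower by -3.63 (SE 0.133, limma adjusted p 9.64e-10, 12.4-fold) in controls and by -1.74 under CCl4 (limma adjusted p 1.28e-06), and the difference between these differences passed the interaction test (1.89, limma adjusted p 0.000299).

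Sparcl1, a matrix glycoprotein related to SPARC, was 12.32, 11.60, 12.46 and 12.33 in WT against 10.35, 10.45 and 9.76. It was lower by -1.99 (SE 0.228, limma adjusted p 0.000363). Psph, the last enzyme of serine synthesis, was lower by -0.84 (limma adjusted p 0.00482), and Atp10d, a phospholipid flippase, by -1.98 (limma adjusted p 0.000352). The secreted matrix protein gene Spon2 was lower by -1.61 (limma adjusted p 0.0153, 0.065 with the replicate block and 0.548 with slide tier as a term). Each of these 4 genes was also lower and called under CCl4. A pair of probes for overlapping long noncoding transcripts near 67868381 on chromosome 5 were not well above background on any Lcn2-/- control array, at least 2.39-fold and 2.32-fold lower.

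On chromosome 2 the called genes were not gathered at Lcn2 itself. Within 5 Mb of the Lcn2 probe 3 of 192 genes were called (1.56%), from 5 to 20 Mb 4 of 228, from 20 to 50 Mb 8 of 249 (3.21%) and beyond 50 Mb 10 of 1169 (0.855%). Around the Oas1a probe on chromosome 5 the counts were 7 of 183 within 5 Mb (3.83%), 10 of 447 from 5 to 20 Mb, 3 of 374 from 20 to 50 Mb and 5 of 481 beyond. These counts include called genes of the top 20 rows. Without them, 3 were called from 5 to 20 Mb of Lcn2, 9 beyond 50 Mb and 6 within 5 Mb of Oas1a. Called genes thus lay over long stretches of both chromosomes, and the genome of the animals was not analysed here.

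Within 20 Mb of Lcn2, 2 genes of the ADAMTS family were called, one of them with probes that disagreed. Adamts13 encodes the plasma protease that cleaves von Willebrand factor and is made by hepatic stellate cells. Its tested probe (chromosome 2, 26852318 to 26852377, mm9) measured 8.81, 8.99, 8.99 and 9.20 in WT controls and 5.46, 4.48 and 5.21 in Lcn2-/- controls, where no array was well above background. The gene's other probe (26862185 to 26862244) went the opposite way, from 2.98 ± 0.177 (SD, n = 4) in WT to 7.87 ± 0.359 (SD, n = 3).
Adamts13 tested probe: tgttcgttgtgtgcagctagaccgtggcca
Adamts13 other probe: atgcaggaagatgcctggcatgactttcag
The probes are shown because they lie about 10 kb apart in the same gene and their signals were exchanged between genotypes. The tested probe was at least 11.1-fold lower (limma adjusted p 4.77e-06), and the other, at background throughout the WT controls, was higher in Lcn2-/- by at least 7.88-fold. The level of Adamts13 as a whole is therefore not given by either. Adamtsl2, a secreted matrix protein that binds fibrillin, was lower by -1.94 (SE 0.257, limma adjusted p 0.00143), from 8.38, 7.54, 8.30 and 8.45 in WT to 6.22, 6.38 and 6.08. Of the modest rises nearby, Tbc1d13 was higher by 0.72 (limma adjusted p 0.0141), Coq4, of ubiquinone synthesis, by 0.84 (limma adjusted p 0.0311) and Rexo4 by 0.73 (limma adjusted p 0.0471). Without WT control 3 Coq4 (limma adjusted p 0.0864) and Rexo4 (0.0515) no longer passed, and with the replicate block Rexo4 did not (0.0586). Under 75th percentile scaling Coq4 (limma adjusted p 0.142) and Rexo4 (0.176) did not pass. Tbc1d13 did not pass without Lcn2-/- control 2 or 3 (limma adjusted p up to 0.0681) or with slide tier as a term (0.235).

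The receptors of lipocalin 2 were also measured. Lrp2 (megalin), an endocytic receptor whose gene lies 37.0 Mb from Lcn2, was 6.92, 6.02, 5.71 and 7.19 in WT controls and 9.56, 9.43 and 7.97 in Lcn2-/- controls. It was higher by 2.53 (SE 0.518, limma adjusted p 0.047), a call that was lost without WT control 3 (2.28, limma adjusted p 0.113) and with the replicate block (0.0906), and in 13 of the 16 fits without 1 array. Under CCl4 it was higher by 2.18 (limma adjusted p 0.0473). Slc22a17, the other described receptor, was 9.66 ± 0.162 (SD, n = 4) in WT and 9.68 ± 0.0477 (SD, n = 3) in Lcn2-/-, a difference of 0.02 (SE 0.157). Of the 26 genes of iron homeostasis tested none was called and none had an unadjusted p under 0.05. Hamp, which encodes the iron hormone hepcidin, differed by 0.19 (SE 0.14, limma adjusted p 0.911), and Tfrc, the transferrin receptor, by 0.49 (SE 0.291, limma adjusted p 0.793).

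Further along chromosome 2, the tested probes of 3 olfactory receptor genes were at background in all WT controls and detected in all Lcn2-/- controls. Olfr1033 measured 3.67, 2.93, 3.12 and 2.94 in WT against 8.74, 7.86 and 8.60, and was at least 11.4-fold higher (limma adjusted p 2.45e-07). Olfr1036 and Olfr1052, within 0.3 Mb of it, were at least 3.79-fold and 2.09-fold higher, with limma adjusted p of 0.000693 and 7.49e-09 (0.265 and 6.48e-05 with slide tier as a term). The second probe of Olfr1036 was above background on 2 of the 3 Lcn2-/- controls and on no WT control, at least 1.73-fold higher. That of Olfr1052 was above background on none of the 7 controls, although it overlaps the tested one. Members of this large family have similar sequences, so the transcript behind each probe is uncertain. Pdk1, a kinase that turns down pyruvate dehydrogenase, was higher by 1.24 (SE 0.177, limma adjusted p 0.00275; 0.65 and 0.696 with slide tier as a term), from 11.18, 11.30, 11.16 and 11.45 in WT to 12.60, 12.27 and 12.68. Ptpmt1, a mitochondrial phosphatase of cardiolipin synthesis, was higher by 0.63 (limma adjusted p 0.0311), but did not pass without WT control 3 (0.0746), without Lcn2-/- control 3 (0.09), with the replicate block (0.0906), under 75th percentile scaling (0.0988) or with slide tier as a term (0.234). Ccdc173 (at least 1.90-fold lower, limma adjusted p 2.73e-05) and LOC100046877 (lower by -3.15, limma adjusted p 3.69e-06) were the lowest in this stretch.

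On the remaining chromosomes the called genes were mostly lower in Lcn2-/-, 48 of 68. Among them were 3 members of the lipid lists. Fgf21, a hormone that liver releases in fasting under PPAR-alpha, measured 11.65, 11.88, 10.16 and 10.69 in WT controls and 8.49, 8.34 and 6.0 in Lcn2-/- controls. The groups did not overlap, and Lcn2-/- control 3 was the lowest. Fgf21 was lower by -3.49 (SE 0.61, limma adjusted p 0.0153). It was lower by -3.80 without WT control 3 (0.0125), and it no longer passed without WT control 1 or WT control 2 (limma adjusted p up to 0.055) or with the replicate block (0.0634). Mogat1, a monoacylglycerol acyltransferase, was 9.26, 8.98, 8.99 and 9.23 against 7.27, 6.78 and 6.25 and was lower by -2.35 (SE 0.336, limma adjusted p 0.00277). Plin2, the coat protein of lipid droplets, was 17.29, 17.11, 16.80 and 17.51 against 16.44, 16.36 and 16.06 and was lower by -0.89 (SE 0.171, limma adjusted p 0.0311, 0.124 with the replicate block and up to 0.116 without any 1 control array other than WT control 3).

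The wider lipid lists were also examined. Of the 40 genes of fatty acid and triglyceride synthesis tested, 3 were called lower (Gpat3, Mogat1, Plin2), against 0.291% of all genes. The median was -0.0131, close to that of all genes. Fasn, Scd1 and other members were not called, and Thrsp, a lipogenic regulator, had a difference of 1.17 (limma adjusted p 0.114). Of the 36 PPAR-alpha targets and genes of fatty acid oxidation and ketogenesis, Fgf21 alone was called, while 32 had a difference below 0 against 12660 of the 24357 genes tested. The median of the list was -0.241, with 6 genes at an unadjusted p under 0.05, all lower. Over all genes 1231 were lower and 790 higher at that p. The examples Vnn1 (-2.11, limma adjusted p 0.0593), Acot1 (-1.30, 0.223) and Pdk4 (-1.07, 0.136) did not pass, and the groups of each did not overlap. Without WT control 3 the median was -0.24, and without Lcn2-/- control 3 it was -0.192.

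**Figure D3:**
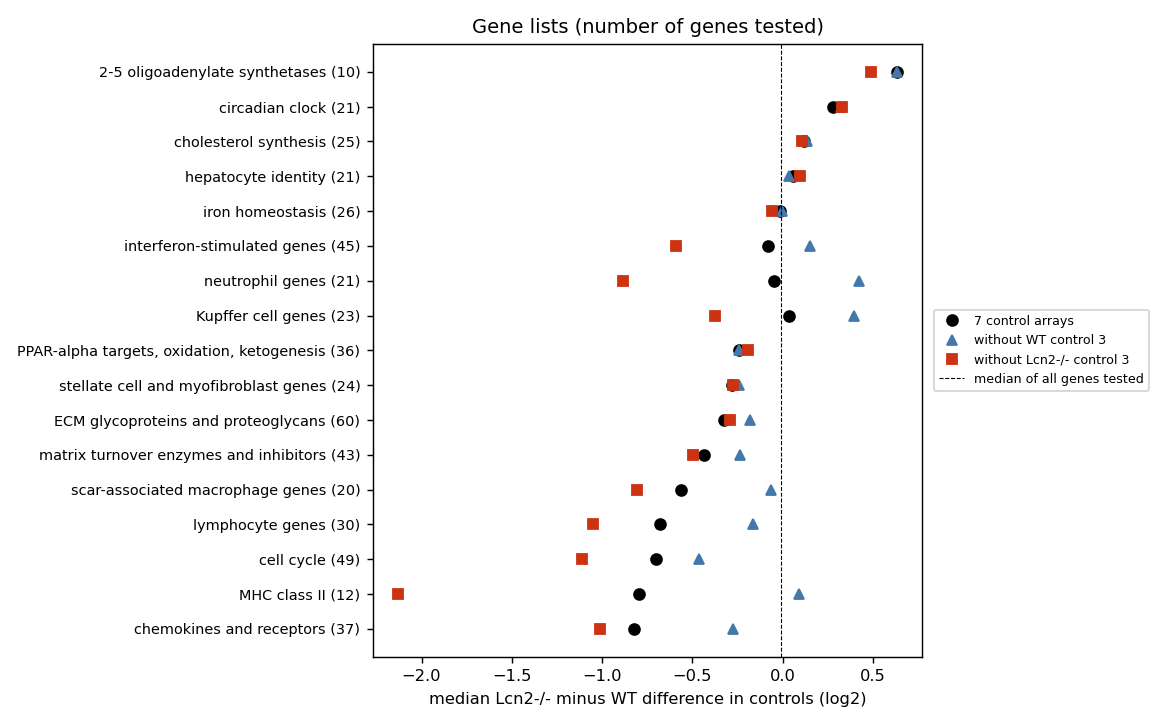
Median difference between Lcn2-/- and WT controls (log2, horizontal axis) over the tested genes of 17 lists, with the number of genes in brackets; black circles use the 7 control arrays, blue triangles leave out WT control 3, red squares leave out Lcn2-/- control 3, and the dashed line is the median of all genes tested with all arrays. MHC class II, neutrophil, Kupffer cell and interferon-stimulated genes change sign between the 2 omissions, while PPAR-alpha and circadian clock genes stay on one side.

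Genes of the circadian clock, the daily oscillator that times much of liver metabolism, were also measured. Arntl (BMAL1), the activating arm of the clock, was 9.97, 9.59, 8.95 and 10.97 in WT controls and 7.99, 7.90 and 8.28 in Lcn2-/- controls. Per1, of the repressing arm, was 12.14, 12.94, 12.81 and 11.48 against 13.56, 14 and 13.22. The groups of both genes did not overlap and their differences were opposite in sign. Arntl differed by -1.82 (SE 0.398, limma adjusted p 0.0678), and was called without WT control 3 (-2.12, limma adjusted p 0.0182). Per1 differed by 1.25 (limma adjusted p 0.185), Ciart, a clock repressor whose probe lies in array row 14, by 2.21 (limma adjusted p 0.208), Per3 by 1.20 (0.352) and Per2 by 0.92 (0.378). None of the 21 clock genes tested was called with all arrays, but 10 had an unadjusted p under 0.05, 8 higher and 2 lower (Arntl and Clock), against 2021 of 24357 genes. The median was 0.279. Under CCl4 the median was 0.273 and Arntl differed by -1.22 (limma adjusted p 0.156). The hour at which each group was killed is not given in the sources used here, so these values cannot be placed in the daily cycle.

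The immune lists depended on replicate 3 of each genotype, the arrays with the highest neutrophil and Kupffer cell markers. Bulk RNA cannot tell fewer cells of a type from less RNA per cell. Of the 21 neutrophil genes and the 23 Kupffer cell genes tested none was called, with medians of -0.0466 and 0.0362. Without WT control 3 the medians were 0.422 and 0.396, and without Lcn2-/- control 3 they were -0.882 and -0.373. The 12 MHC class II genes behaved alike, at -0.798 with all arrays, 0.0901 without WT control 3 and -2.13 without Lcn2-/- control 3. For these lists the direction of the genotype difference depended on which replicate 3 was left out. Without both replicates 3 the neutrophil, Kupffer cell and MHC class II medians were -0.329, -0.132 and -1.44. With the replicate block they were -0.0473, 0.0259 and -0.863. Of the 12 MHC class II genes, 11 were below 0 with all arrays, 11 with the block and 12 without both replicates 3. Over all 24357 genes tested these counts were 12660, 12456 and 12704.

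A few immune genes stood out against this. Cx3cr1, the fractalkine receptor of monocytes and macrophages, was 11.29, 11.09, 11.77 and 10.95 in WT and 8.85, 9.43 and 9.03 in Lcn2-/- controls. The groups did not overlap, with WT control 3 the highest WT array and Lcn2-/- control 3 between the other two of its group. Cx3cr1 was lower by -2.17 (SE 0.267, limma adjusted p 0.000693), by -2.01 without WT control 3 (0.00244) and by -1.63 under CCl4 (0.00372). With slide tier as a term the difference was -2.05 and did not pass (limma adjusted p 0.197). Its second probe was lower by -2.27. Its ligand gene Cx3cl1 differed by -0.84 (limma adjusted p 0.472). Gpnmb, a glycoprotein of lipid-laden and scar-associated macrophages, was 7.32, 5.99, 8.43 and 8.47 in WT and 5.14, 3.23 and 3.00 in Lcn2-/- controls, where it was not well above background. It was at least 4.09-fold lower (limma adjusted p 0.0132, 0.039 without WT control 3), but not past the threshold with the replicate block (0.104) or without Lcn2-/- control 2 or 3 (up to 0.0692). Trem2, of the same macrophages, differed by -0.96 (limma adjusted p 0.406).

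Of the 37 chemokine and receptor genes tested, Cx3cr1 was called lower and Ccl27a higher, against 0.291% and 0.238% of all genes. Ccl27a was higher by 0.89 (limma adjusted p 0.0354, 0.0665 without WT control 3 and 0.0601 with the replicate block). Of its other probes well above background on all controls, one that overlaps the tested probe differed by 0.71 and one elsewhere by 0.25. The median of the list was -0.823, and -0.277 without WT control 3. Themis, a thymocyte signalling gene, was called lower (limma adjusted p 6.42e-05, 0.0506 with slide tier as a term), from 5.71, 5.48, 5.53 and 5.21 in WT to 3.66, 3.45 and 2.89 in Lcn2-/- controls. It was well above background on 3 of the 4 WT controls and on none of the Lcn2-/- controls or CCl4 arrays, so no fold is given.

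Calls among matrix genes are given beside the 129 of all 24357 genes tested (0.53%). Of the 60 ECM glycoproteins and proteoglycans tested, Sparcl1 and Thbs2 were called lower, and the median was -0.324. In this list 52 genes had a difference below 0, against 12660 of all 24357. At an unadjusted p under 0.05, 16 of the 60 were lower and 0 higher, against 1231 lower and 790 higher of all genes. Thbs2, a matricellular thrombospondin, was 6.94, 7.14, 7.80 and 7.41 in WT and 6.08, 6.33 and 6.22 in Lcn2-/- controls, lower by -1.11 (SE 0.205, limma adjusted p 0.0217, 0.0459 without WT control 3, up to 0.119 without WT control 4 or any 1 Lcn2-/- control). Elastin (Eln) and fibrillin 1 (Fbn1) had differences of -1.09 and -0.91 that missed the threshold (limma adjusted p 0.074 and 0.138). Of the 43 matrix proteases, inhibitors and crosslinkers, 2 were called. Mmp24 was lower by at least 1.54-fold (limma adjusted p 0.0354, 0.143 with the replicate block), and the other was Adamts13, whose 2 probes went opposite ways. The median of the list was -0.437. Of the 31 collagen genes none was called, with a median of -0.194 and 7 lower and 1 higher at an unadjusted p under 0.05. Col1a1 was 11.73, 11.07, 13.98 and 12.03 in WT and 10.68, 10.33 and 10.47 in Lcn2-/- controls, a difference of -1.71 (limma adjusted p 0.229). WT control 3 was the highest array for Col1a1 by a wide margin. Without it the medians of the 3 matrix lists were -0.18, -0.238 and -0.0783.

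None of the 49 cell cycle genes tested was called. In this list 44 had a difference below 0, against 12660 of all 24357 genes, and the median was -0.702. At an unadjusted p under 0.05, 10 were lower and 1, Tk1 (0.68, limma adjusted p 0.223), was higher. Over all genes 1231 were lower and 790 higher at that p. Nek2, a mitotic kinase, was 9.35, 9.20, 9.61 and 9.55 against 8.44, 7.93 and 8.72, a difference of -1.07 (limma adjusted p 0.229). The median was -0.464 without WT control 3 and -1.11 without Lcn2-/- control 3, so its sign held in both.

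Lists of normal liver function had small medians after quantile normalization. The 21 hepatocyte identity genes had a median of 0.0579, the 74 cytochrome P450 genes 0.0582, the 25 cholesterol synthesis genes 0.12 and the 38 genes of the respiratory chain -0.0103, and none of these was called. Under 75th percentile scaling these medians were 0.234, 0.143, 0.176 and 0.12, against 0.0354 for all genes. The cytochrome P450 median was -0.032 without WT control 3. Single hormonal genes were called elsewhere: Mas1, a receptor of angiotensin fragments, was lower by -2.20 (limma adjusted p 0.00208, 0.307 with slide tier as a term) and the melatonin receptor gene Mtnr1a by -1.32 (limma adjusted p 0.0392, 0.148 with the replicate block, 0.134 without Lcn2-/- control 3 and 0.938 with slide tier as a term). Irx1, a homeobox gene, was 8.91, 9.10, 8.42 and 8.54 in WT and 9.94, 10.01 and 9.61 in Lcn2-/- controls, higher by 1.11 (limma adjusted p 0.00143, 0.135 with the 7 arrays alone and 0.212 with slide tier as a term). All CCl4 arrays were at background for it, so no CCl4 difference is given. These 3 genes, like Themis, Spon2, Psph, Atp10d, Ptpmt1, Olfr1036 and Olfr1052, were picked from the called genes after their values were seen.

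Other large differences lay on further chromosomes or in genes of unknown function in liver. A probe for a long noncoding transcript of chromosome 3 (at 118029579) measured 4.96, 4.98, 4.92 and 4.53 in WT and 10.41, 9.41 and 8.63 in Lcn2-/- controls. No WT control was well above background, and the signal was at least 21.7-fold higher in Lcn2-/- (limma adjusted p 3.9e-06). Another probe of the same transcript, at 118029806, was above background on 1 WT control only and differed by -0.56, so the rise is that of the probe. On the X chromosome, Gm3185 was higher by 4.47 (limma adjusted p 3.84e-05) and the transcript XM_001474107 by 4.35 (limma adjusted p 3.09e-07). Each of these 3 was called under CCl4 as well, with differences of 4.10, 4.18 and 3.98 and some WT arrays above background for each. Among the falls, Mab21l3 measured 6.58, 6.95, 9.13 and 7.60 in WT and 2.92, 2.91 and 5.72 in Lcn2-/- controls, lower by -3.72 (limma adjusted p 0.0311, 0.0687 without WT control 3). Its second probe, at background on all WT controls and above it on 1 Lcn2-/- control, differed by 1.20, so the fall is that of the tested probe. Trim67, a gene of the TRIM family, was not well above background on any Lcn2-/- control and at least 1.22-fold lower (limma adjusted p 0.00154, 0.0584 with the 7 arrays alone and 0.0713 with normexp). The second Trim67 probe was at background on all controls. D930016D06Rik on chromosome 5 was lower by -2.98 (limma adjusted p 0.000639) and Vsig10, an immunoglobulin-domain gene of the same chromosome, by -2.40 (limma adjusted p 0.00307). Of these 4, D930016D06Rik and Vsig10 were called under CCl4, at -2.95 and -1.50.

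The same contrast in CCl4-treated mice was then set beside the controls. Under CCl4 0.636% of all genes were called, and 67.4% of all genes had the same sign in both contrasts. Of the 129 genes called in controls, 117 had the same sign under CCl4 and 57 were called there, all in the same direction. For the 47 genes on chromosome 2 or 5 below the top rows, all 47 had the same sign and 38 were called. For the 68 on other chromosomes, 59 had the same sign and 19 were called. The second-tier array WT CCl4 1 lay nearer to the mean of the other WT CCl4 arrays than to that of Lcn2-/- CCl4 in 105 of the 129 genes called in controls. It did so in 44 of the 47 on chromosome 2 or 5 and in 56 of the 68 on other chromosomes, against 13898 of all 24357 genes tested. Where both CCl4 groups are at background this position carries no information.

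**Figure D4:**
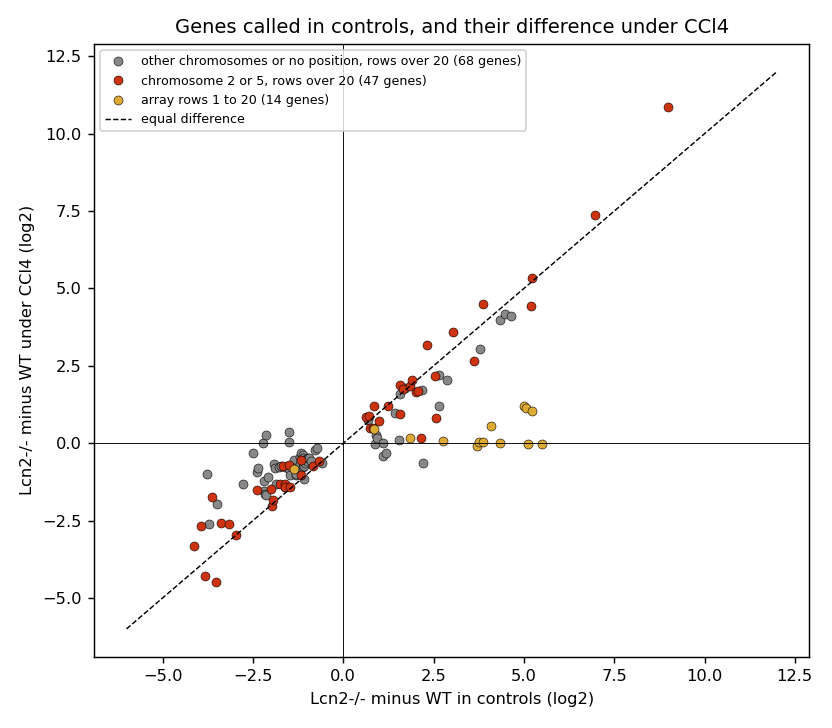
Difference between Lcn2-/- and WT (log2) in controls (horizontal axis) and under CCl4 (vertical axis) for the 129 genes called in controls; red points lie on chromosome 2 or 5, grey points elsewhere, gold points have probes in array rows 1 to 20, and the dashed line marks equal differences. All 47 red points have the same sign on both axes, although some, such as Gpat3 at -3.63 and -1.74, lie off the line, and most gold points lie near 0 on the vertical axis.

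The 14 genes in the top rows stood apart by position. Their probes lie in rows 3 to 8, 13 were higher and 1, Cntnap1, was lower (a call lost without WT control 3, limma adjusted p 0.0792, without Lcn2-/- control 3, 0.133, and with the replicate block, 0.126), and 12 of the 13 stood in 5 of the 164 array columns between column 74 and column 123. Olfr1317 measured 2.92, 2.90, 2.89 and 2.93 in WT and 7.94, 7.73 and 8.42 in Lcn2-/- controls. All CCl4 arrays were at background for it. The others with rises over 4 were Kcna10, Tas2r136, Riiad1, Ceacam12, Nxph2 and a long noncoding probe of chromosome 5 at 120253825. Of the 14 genes 0 were called under CCl4. The interaction was called for 7 (0.0534% of all genes), but 6 of these were at background on all CCl4 arrays, so that the floor fixes their CCl4 difference and nothing is read from it. For 6 of the 14 genes the array held 12 other probes, all below the top rows. Their differences lay between -0.92 and 0.59, and for 5 of the 6 genes no other probe was above background on any control. Gene spots at background on all 4 WT controls were well above background on 22.44%, 24.19% and 23.19% of 401 spots in rows 3 to 8 on Lcn2-/- control 1 to 3, against 2.53%, 3.18% and 2.81% of 21957 spots in rows 21 to 384. On WT CCl4 1, a WT array of the same tier, the share in rows 3 to 8 was 13.22%, against 3.49% to 8.73% on the first-tier WT CCl4 arrays. On the second-tier Lcn2-/- CCl4 arrays 1 to 4 the share was 28.18%, 24.69%, 20.2% and 4.24%, so that replicate 4 lay within the range of the first-tier WT CCl4 arrays. The share thus followed neither tier nor genotype on every array, and its part in the calls of the genes without another probe was not tested beyond leaving the rows out.

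**Figure D5:**
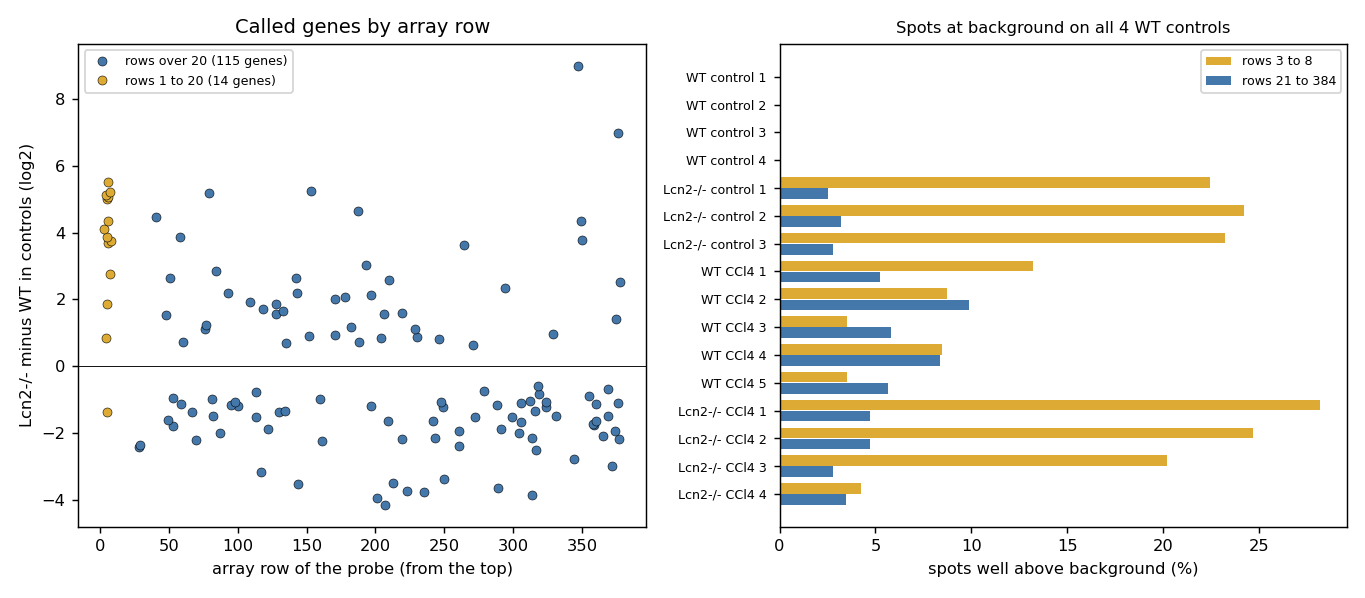
Left, difference between Lcn2-/- and WT controls (log2) of the 129 called genes by the array row of their probe, with rows 1 to 20 in gold. Right, percentage of gene spots well above background on each array, among spots at background on all 4 WT controls (0 there by construction), for rows 3 to 8 (gold) and rows 21 to 384 (blue); the 3 Lcn2-/- control arrays reach 22.44% to 24.19% in rows 3 to 8.

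The opposite edge of the array showed the reverse. Of 272 spots in rows 381 to 384 that were at background on all 3 Lcn2-/- controls, 24.63% to 29.04% were well above background on the WT controls, against 5.49% to 8.44% in rows 1 to 364. On WT CCl4 1 the share in rows 381 to 384 was 4.04%, against 11.76% to 36.76% on the first-tier WT CCl4 arrays. On the second-tier Lcn2-/- CCl4 arrays 1 to 4 it was 4.78%, 3.68%, 2.21% and 1.1%. At this edge every second-tier CCl4 array thus lay below every first-tier one. The same held in rows 1 to 364, at 4.91% to 8.35% on the second tier and 10.9% to 17.03% on the first. The cause was not tested. None of the 129 called genes lay in rows 381 to 384, but 7 of the 24 genes added by leaving out WT control 3 did. Another 10 called genes, 7 lower and 3 higher, had probes in rows 365 to 384, among them Cx3cr1, Adamtsl2, Oas1f and Lrp2. The second Cx3cr1 probe lies in row 360. Leaving out rows 1 to 20 and 365 to 384 together gave 103 genes, of which 100 were among the 129.

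Genes close to the threshold show how firm the list is. The last genes inside it were Rexo4 and Nfat5, both at a limma adjusted p of 0.0471, and the first outside it were a long noncoding transcript of chromosome 10 at 0.0502 and LOC639968 and Gm3459 at 0.0511. Of the 40 named called genes other than Lcn2, 15 kept the call in every alternative in which they could be tested. With slide tier as a term 25 of the 40 lost the call, among them Cx3cr1, Mogat1, Sparcl1, Adamtsl2 and Pdk1. Those that kept it throughout include Oas1a, Oas1f, Zfp33b, Olfr1033, Gpat3, LOC100046877 and the tested probe of Adamts13. Another 5 of the 15 (Olfr1317, Riiad1, Ceacam12, Nxph2 and the noncoding probe of chromosome 5 at 120253825) lie in the top rows and have no value in the alternatives that leave those rows out.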

How the data were processed

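Liver RNA of 16 mice was labelled with Cy3 and hybridised to Agilent SurePrint G3 mouse arrays. Per the file headers the authors ran Feature Extraction 10.7.3.1, and each deposited file holds 1 array's processed spot intensity on a linear scale, after background subtraction and detrending, not normalized between arrays. A table of quantile-normalized log2 values that the authors deposited served as an alternative, with all its columns in use. The submitters' processing notes name limma.

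Control spots (3671 of 62976) and spots marked as outliers were left out. The log2 processed signal was quantile normalized over the 16 arrays, as in the study's methods, spots of a probe were averaged, and a probe was kept if 3 or more arrays measured it well above background. The probe with the highest mean stood for each gene, giving 24357 genes. The number of arrays limits the precision. Accessions were matched to a RefSeq table (GRCm38.p6), which named 61% of the genes, while the rest carry the names of the array design. Probe positions are those of the files (mm9). The exon or UTR under each probe was not analysed here.

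Groups came from the titles of the samples. One limma 3.58.1 model in R 4.3.3 (lmFit, contrasts.fit, eBayes) over the 4 groups gave Lcn2-/- against WT in controls, under CCl4, and the interaction, with Benjamini-Hochberg adjustment within each contrast, and was tested on simulated data. Where a group had no array well above background, the fold is a lower bound. The dim side then took, on each array, whichever was higher of the probe's own signal and the dimmest signal that still counted as well above background. Named are Lcn2, the 14 largest rises and 14 largest falls among called genes whose groups did not overlap, called genes within 20 Mb of Lcn2, called members of the gene lists, and genes of the study's text. These members and lists were chosen with earlier results of these data known. Of the 15 genes of that text tested, Lcn2 and Lrp2 were called. Those not called were Col1a1, Slc22a17, Acta2, Timp1, Mmp2, Tgfb1, Ece1, Ednra, Ednrb, Hif1a, Agt, Slc22a7 and Edn1. Edn1, at background in Lcn2-/- controls, was at least 1.06-fold lower (limma adjusted p 0.127) and was called without WT control 2 (0.0348).

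Control arrays with the same number share a slide column. Deviations from the group means, across genes, correlated at 0.233, 0.368 and 0.552 for numbers 1, 2 and 3, each the highest of its Lcn2-/- array, so the number was used as a block in an alternative fit. Others were 75th percentile scaling, normexp background correction, the filter on dim probes, every probe on its own, the 7 arrays alone, array weights, slide and tier as terms, leaving out array rows and leaving out each array. Leaving out both replicates numbered 3, rows with an array, and the bottom rows were chosen after seeing the data.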

Additional observations from a re-analysis of the deposited data

Results flagged for a closer look

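Each group of 4 WT controls was screened for an array whose gap to the nearest other exceeded Dixon's 95% critical value. Of 64 such sets 6 passed, and chance flags about 5%. WT control 2 was far from the others for Adamtsl2 (7.54, others 8.30 to 8.45), Sparcl1 (11.60, others 12.32 to 12.46), Olfr433, an olfactory receptor gene (6.81, others 5.76 to 5.79), and the long noncoding probe of chromosome 5 at 120253825 in the top rows (3.44, others 2.89 to 2.93). WT control 4 was low for the long noncoding transcript of chromosome 3 with its probe at 118029579 (4.53, others 4.92 to 4.98). WT control 1 was high for the summed cholangiocyte markers (10.42, others 9.70 to 9.78).

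The genotype difference under CCl4 differed from that in controls for 12 of the 129 called genes by the interaction term in limma. For several of them the genes were at background in CCl4 livers, so that the difference there is fixed by the floor and the term says nothing of a changed genotype difference. In the top rows, these were Nxph2 (-3.55, adjusted p 0.0129), Olfr1317 (-5.13, 5.68e-10), the chromosome 5 noncoding probe (-5.52, 1.68e-07), Ceacam12 (-4.35, 0.000474), a noncoding transcript of chromosome 15 with its probe at 97674076 (-3.77, 0.0153), Riiad1 (-3.93, 0.0129) and EL606508 (-3.72, 0.0445), of which EL606508 alone was well above background on any CCl4 array. Below them were Gpat3 (1.89, 0.000299), Themis (2.40, 0.00236), Slc35f2, a solute carrier gene (1.89, 0.0129), Tm4sf20 (2.23, 0.0236), and Wfikkn2, a secreted protease inhibitor gene (-1.50, 0.0493). All CCl4 arrays were at background for Themis and Tm4sf20, all WT controls for Wfikkn2 and all Lcn2-/- controls for Slc35f2. With a group at the floor, the terms of these genes are not read as a changed genotype difference. Of the 5 genes below the top rows Gpat3 alone was also called under CCl4.

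Dim control spots, which no comparison used, were raised in rows 3 to 8 on Lcn2-/- control 3. Their median log2 signal over 5 spots was 6.35 there, against 2.67 to 3.07 on the WT controls.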

How the results depend on the processing

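Lcn2 and the 40 named calls kept their direction in all alternatives run. The split of calls did not, from 58 higher and 71 lower to 58 and 53 under 75th percentile scaling, 61 and 58 with normexp, 55 and 39 without Lcn2-/- control 1 and 73 and 70 without Lcn2-/- control 3. The medians of the interferon-stimulated, neutrophil, Kupffer cell and MHC class II lists changed sign without replicate 3 of 1 genotype. The count of 129 genes was 216 with no filter on dim probes (125 higher and 91 lower), 1270 with array weights (545 higher and 725 lower) and 40 with slide tier as a term (15 higher and 25 lower, 19 of them among the 129), a fit in which WT CCl4 1 alone separates tier from genotype. Leaving out 1 array gave 94 to 143 genes. The replicate block pairs the controls by slide column, but the WT CCl4 arrays by number only. With it the count was 92, of which 85 were among the 129. With the 7 arrays alone it was 93, which ended the calls of Gpnmb, Mab21l3, Fgf21, Trim67, Olfr433, Rexo4, Ccl27a, Mmp24, Thbs2, Plin2 and Lrp2. Under 75th percentile scaling, which set the median of all genes at 0.0354, it was 111. The Lcn2 difference was -4.26 with the replicate block (adjusted p 0.0643), -4.22 with the 7 arrays alone (0.197) and -3.51 with the tier term (0.696), and -4.60 to -3.34 without 1 array. The block ended the calls of Lcn2, Gpnmb, Fgf21, Rexo4, Ccl27a, Mmp24, Plin2 and Lrp2, of no other gene named by the rule, and of Spon2, Ptpmt1, Mtnr1a, Nfat5 and Cntnap1, named after their values were seen. The tier term ended 25 of the 40 named calls (Tas2r136, Kcna10, Gm3185, Gpnmb, Mab21l3, the noncoding probe at 67868462 on chromosome 5, Fgf21, Ccdc173, D930016D06Rik, Trim67, Olfr433, Vsig10, Rexo4, Tbc1d13, Coq4, Adamtsl2, Mogat1, Pdk1, Ccl27a, Mmp24, Sparcl1, Thbs2, Plin2, Cx3cr1 and Lrp2) and those of Mas1, Spon2, Themis, Irx1, Mtnr1a, Ptpmt1, Olfr1036, Nfat5 and Cntnap1. Leaving out 1 array at a time ended the calls of Rexo4 in 14, Lrp2 in 13, Mmp24 in 9, Ccl27a in 8, Coq4 in 7, Plin2 in 6, Mab21l3 in 5, Thbs2 in 4, Gpnmb, Fgf21 and Tbc1d13 in 2 each and Olfr433 in 1 of the 16 fits, with adjusted p up to 0.231. The causes were not tested. Genes dim in 1 genotype have only a bound.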
